A study of Homo sapiens with 6 samples.

Results

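The proteins of the large cytosolic ribosomal subunit were followed as mRNAs recovered with PTBP1. The members are the rows of the deposited table named RPL with a number and at most 1 letter and further digits, or RPLP0, RPLP1 or RPLP2, which gave 52 of 20024 listed genes. The series is a RIP-seq experiment, in which an antibody pulls down a protein and the attached RNA is then read. PTBP1, polypyrimidine tract-binding protein 1, binds CU-rich RNA and acts in splicing, stability and translation. Both groups were AC16 cells, labelled as heart cardiomyocytes, and both were taken through RIP with the PTBP1 antibody. They were 3 libraries from cells labelled DCRT-KO, a knockout of the long noncoding RNA DCRT, and 3 from wild-type (WT) cells. The sources used here do not say how the knockout was made or whether it is 1 clone, and no listed gene was named DCRT, so the knockout was not checked. Of 12 cardiomyocyte markers, MYH6, MYH7, MYL7, TNNI3 and TNNT2 had no read in any library, and only NPPB and TTN reached a mean of 1 FPKM. Their summed level was 5.35 to 7.69 FPKM across WT and 1.59 to 14.6 across DCRT-KO. Of 4 epithelial markers, KRT8 and KRT18 were detected and CDH1 had no read, and the sum was 58.5 to 67.0 FPKM across WT and 93.8 to 227 across DCRT-KO. Of 8 fibroblast markers only PDGFRA reached a mean of 1 FPKM, DCN, LUM and COL1A2 had no read, and the sum was 16.5 to 19.7 FPKM across WT and 8.41 to 11.1 across DCRT-KO. The epithelial and fibroblast sums did not overlap between genotypes, and their part in the results on ribosomal mRNAs was not tested.

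The large subunit holds the peptidyl transferase centre, where peptide bonds are made, the tunnel through which the new chain leaves, and the stalk that recruits translation factors. Its proteins are built into each ribosome in fixed proportions. In mammals most of their mRNAs carry a 5′ terminal oligopyrimidine (TOP) tract, a start at C followed by a run of pyrimidines, through which mTORC1 and LARP1 control translation of the whole set. In the heart, ribosome supply is known to limit growth of the muscle cell.

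Whole reads worked back from the values totalled 1798841 to 2589080 per WT library and 373354 to 1380722 per DCRT-KO library, so every DCRT-KO library was shallower than every WT library. Neither input RNA nor a control pull-down was analysed here, so transcript abundance, PTBP1 binding and RNA carried along unbound cannot be told apart. Mitochondrially encoded genes took 29.9% to 36.6% of summed FPKM (fragments scaled by gene length and library total) in WT and 22.0% to 34.2% in DCRT-KO, and what they take lowers all other values. DCRT-KO library 3, the deepest of its group, had a correlation with WT libraries across genes on the log2 scale of 0.919 to 0.933, against 0.848 to 0.872 for the shallower DCRT-KO libraries 1 and 2. By chi-square per degree of freedom, which sets differences against counting error, library 3 had 7.75 to 9.44, against 7.21 to 8.60. Correlation falls with counting error in shallow libraries, and this chi-square grows with depth, so neither settles which DCRT-KO library was closest to WT. WT libraries carry no usable replicate number and are called a, b and c.

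Large-subunit mRNAs were mostly higher in DCRT-KO RIP. Among the 50 members with a mean of at least 1 FPKM, 40 had a positive log2 difference, against 47.2% of all 11445 genes tested, and their median difference was 0.39 on the log2(FPKM + 1) scale, against -0.04 for all tested genes. In 23 members every DCRT-KO value lay above every WT value, against 15.5% of tested genes, and in RPL9 alone every DCRT-KO value lay below, against 14.8%. RPL11, RPL3, RPL8 and RPLP2 rose past an adjusted p of 0.05 (limma over all tested genes, Benjamini-Hochberg), 4 of 50 members against 2.35% of all genes. None fell with limma, against 1.2% of all genes. At an unadjusted limma p below 0.05, 23 members were higher and 1 lower, against 1403 and 1297 of all 11445 genes. Voom called none lower, against 3.4% of all genes.

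The call count depended on single libraries. It was 0 members higher when any one of the 3 WT libraries, DCRT-KO library 1 or DCRT-KO library 2 was left out. At an unadjusted limma p below 0.05 these fits had 15 to 23 members higher. All genes were counted at that p only in the main fit (1403 of 11445 higher), so these member counts have no matching share beside them. Calls over all 11445 genes fell away in the same fits, to 4, 8 and 0 genes higher without WT a, b and c, and to 134 and 42 without DCRT-KO 1 and 2. Without DCRT-KO library 3 it was 19 higher, against 6.18% of all genes, and 2 fell, RPL9 and RPL36A, against 7.17%. Voom, which weighs whole reads by their precision, called 17 members higher, against 5.85% of all genes, and all 4 limma calls were among them. With quality weights added, voom called 23 members higher, against 7.16% of all genes. Of 20 alternative fits, RPL11 passed in 12, RPLP2 in 8, RPL3 in 7 and RPL8 in 6. The median difference of the members kept its sign in every one of these fits. With quantile normalization, 34 of 50 members had a positive difference and the median was 0.16.

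**Figure D1:**
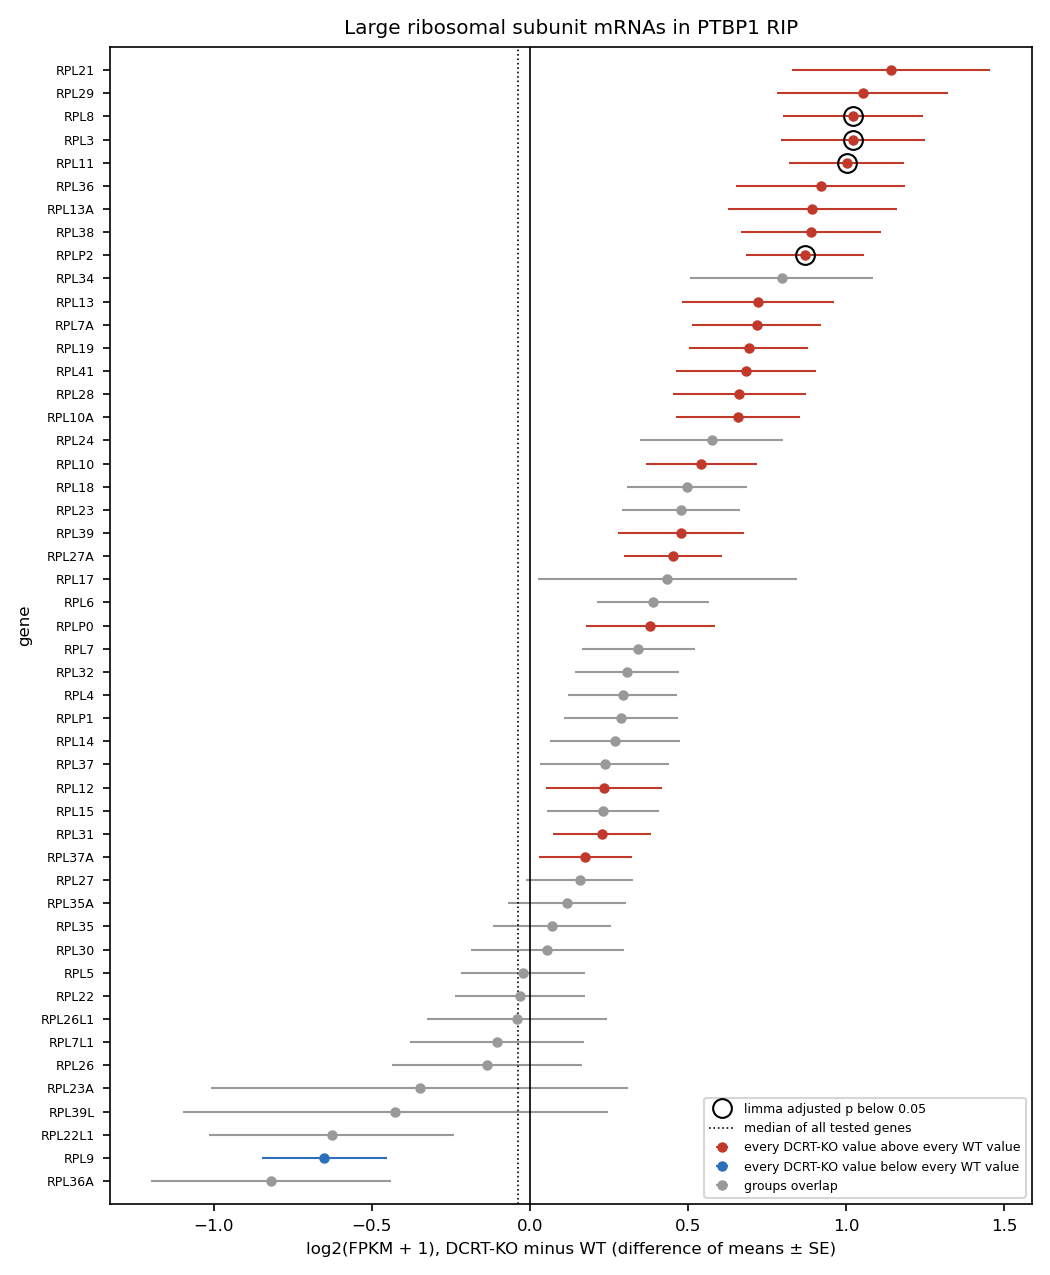
Log2 difference (DCRT-KO minus WT, log2(FPKM + 1) scale) for 49 tested large-subunit mRNAs, with bars of 1 SE, 3 libraries a group. Circles mark the 4 members past an adjusted p of 0.05 with limma; red marks 22 members whose DCRT-KO values all lie above WT, and blue marks RPL9, whose values all lie below.

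The members together held 2.04%, 1.87% and 2.24% of summed FPKM in WT libraries a, b and c. In DCRT-KO libraries 1, 2 and 3 they held 2.76%, 3.27% and 2.89%. The groups did not overlap, and the means were 2.05% ± 0.184 in WT and 2.98% ± 0.266 in DCRT-KO (SD, n = 3 each). With mitochondrially encoded genes left out of the total, the WT shares became 2.91%, 2.74% and 3.53% and the DCRT-KO shares 4.20%, 4.30% and 3.71%, again without overlap. Set against the mean of the 3 WT libraries, the median member stood at 0.41, 0.60 and 0.21 in DCRT-KO libraries 1, 2 and 3 on the log2(FPKM + 1) scale. WT library c stood at 0.16 on the same measure, and WT libraries a and b at -0.06 and -0.11. Library c was the highest WT library for 37 of 50 members, so the distance from WT c to DCRT-KO 3 was small beside that to DCRT-KO 2. In DCRT-KO library 3, 30 tested members lay above all WT values, against 38.1% of all tested genes. The same count was 36 in DCRT-KO library 1 and 40 in library 2, against 34.3% and 36.6%.

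**Figure D2:**
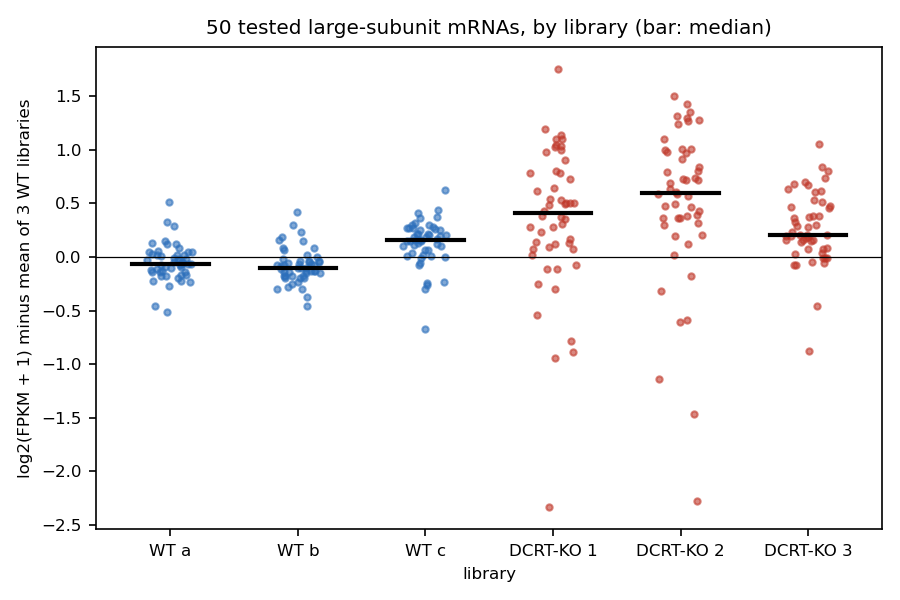
Each point is 1 of 50 tested members, plotted by library as log2(FPKM + 1) minus the mean of the 3 WT libraries; the bar is the median. The medians of DCRT-KO libraries 1, 2 and 3 are 0.41, 0.60 and 0.21, and that of WT library c is 0.16.

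The start sites show what most members share beside the protein complex. RefSeq promoter windows (GRCh38.p14) were matched for 42 members by symbol. A start at C followed by at least 4 more pyrimidines, read at the annotated start on the transcribed strand only, was found in 29 of these 42 genes (69%), in 75% of 28 small-subunit genes, in 7.62% of 9115 tested genes with a window and in 5.14% of all 27305 genes with one. Where a gene has several annotated starts, 1 match was enough. The windows below hold 15 bases before the annotated start and 15 from it onward, 5′ to 3′, with the pyrimidine run from the start in capitals. They are shown for some of the members that the results turn on, and no window was matched for RPL8 or RPL5.
RPL11: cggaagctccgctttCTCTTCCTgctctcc (chr1:23691791-23691820, plus strand)
RPLP2: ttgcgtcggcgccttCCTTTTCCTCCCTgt (chr11:809952-809981, plus strand)
RPL3: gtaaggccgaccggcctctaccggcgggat (chr22:39319609-39319638, minus strand)
RPL21: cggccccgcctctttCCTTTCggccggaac (chr13:27251543-27251572, plus strand)
RPL29: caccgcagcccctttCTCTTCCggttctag (chr3:51995881-51995910, minus strand)
RPL13A: cgacaaaacctcctcCTTTTCCaagcggct (chr19:49487593-49487622, plus strand)
RPLP0: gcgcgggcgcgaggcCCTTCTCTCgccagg (chr12:120201097-120201126, minus strand)
RPL41: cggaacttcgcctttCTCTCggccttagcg (chr12:56116618-56116647, plus strand)
RPL26: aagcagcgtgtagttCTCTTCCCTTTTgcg (chr17:8383179-8383208, minus strand)
RPL22L1: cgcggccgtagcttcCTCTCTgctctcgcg (chr3:170870181-170870210, minus strand)
RPL36A: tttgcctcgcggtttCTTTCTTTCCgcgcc (chrX:101390996-101391025, plus strand)
RPL9: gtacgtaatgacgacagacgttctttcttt (chr4:39458908-39458937, minus strand)
RPL3 starts with a shorter run than the search asked for, and RPL9 starts with a purine.

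The run, as read at the annotated start, did not separate members that were higher from those that were not. Some windows without a match held a pyrimidine tract near the annotated start, as in RPL19, RPL10A and RPL9. The starts in use in these cells were not checked, so a missing match does not show that a TOP tract is absent. RPL26, RPL22L1 and RPL36A carry it and had negative differences, while RPL3, without a match, rose. Of the 29 members with a match, 25 had a positive difference, with a median of 0.50 on the log2(FPKM + 1) scale. Of 12 tested members with a window but no match, 9 were positive, with a median of 0.30. The letters CTTCCG or their reverse complement CGGAAG, anywhere in the 300-base window on either strand, were in 54.8% of the 42 members in 39.0% of 9115 tested genes with a window and in 22.6% of all genes with one. The 4 letters TCTT, which in RNA form part of motifs PTBP1 is known to bind, occurred at a median of 3.98 per kilobase of transcript in the members and 4.80 in all tested genes. Across the 50 members their density had a Pearson correlation of -0.39 (Spearman -0.37) with the log2 difference, and across 11424 tested genes the Pearson value was -0.29. Members share libraries, and TCTT density goes with base composition, so this is a description.

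RPL11 and RPL5 bind 5S rRNA and join the ribosome together, and the free pair inhibits MDM2, the ubiquitin ligase of p53. RPL11 (ENSG00000142676, at chr1:23691742-23696835 as deposited) had 68.4, 67.5 and 76.6 FPKM in the WT libraries (in the order a, b, c) and 153, 168 and 113 in DCRT-KO (in the order 1, 2, 3). All DCRT-KO values were above all WT values, with library 3 the lowest of them. RPL11 rose from 70.8 ± 4.99 to 145 ± 28.7 FPKM (log2 difference 1.002 ± 0.18 SE, limma adjusted p = 0.0269), and over 20 alternative fits its difference ran from 0.67 to 1.17 and its adjusted p from 7.7e-05 to 0.14. RPL5 was at 59.3, 63.0 and 89.9 FPKM across WT and at 78.4, 61.2 and 66.8 across DCRT-KO. The groups of RPL5 overlapped throughout, with a log2 difference of -0.02 ± 0.20 SE (limma adjusted p = 0.959). The difference between both genes' responses was not tested.

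RPL3 and RPL8 lie close to the peptidyl transferase centre. RPL3 (ENSG00000100316, chr22:39312882-39320389) was at 90.0, 82.1 and 114 FPKM across WT and at 194, 256 and 145 across DCRT-KO. RPL8 was at 102, 98.6 and 140 FPKM across WT and at 258, 270 and 172 across DCRT-KO. Neither gene's groups overlapped, and in both WT c was the highest WT library and DCRT-KO 3 the lowest DCRT-KO library. RPL3 rose by a log2 difference of 1.02 ± 0.23 SE (limma adjusted p = 0.0449) and RPL8 by 1.02 ± 0.22 (limma adjusted p = 0.0414). With the GC and transcript-length trend taken out per library, the differences were 0.87 (limma adjusted p = 0.0875) and 0.67 (0.131), where the adjusted p over all 20 alternatives ran from 3.3e-05 to 0.197 for RPL3 and from 6.6e-05 to 0.219 for RPL8. RPL10, which is added late in the cytoplasm and sits near the tRNA sites, was at 240.5, 200.2 and 222 FPKM across WT and at 337, 362 and 272 across DCRT-KO. Its groups did not overlap either, with a log2 difference of 0.54 ± 0.18 SE (limma adjusted p = 0.105, voom 0.025), which turned to -0.05 with quantile normalization.

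The stalk is built on RPLP0, with pairs of RPLP1 and RPLP2 attached, and recruits the GTPases of translation. RPLP2 (ENSG00000177600, chr11:809965-812880) was at 181, 155 and 224 FPKM across WT and at 317, 319 and 382 across DCRT-KO, so DCRT-KO library 3 was the highest here. RPLP2 rose by a log2 difference of 0.87 ± 0.19 SE (limma adjusted p = 0.0409). Its difference was 0.33 after removal of the trend with GC content and transcript length (adjusted p = 0.367, the highest of 20 alternatives; the lowest was 0.000542) and 0.32 with quantile normalization (adjusted p = 0.228). RPLP2 had the highest GC content of the 50 tested members, 63.6%. RPLP0 was at 683, 539 and 787 FPKM across WT and at 816, 915 and 860.1 across DCRT-KO, without overlap but with WT c close to the lowest DCRT-KO value. Its log2 difference was 0.38 ± 0.20 SE (limma adjusted p = 0.288), and -0.09 with quantile normalization. RPLP1 was at 221, 199.5 and 259 FPKM across WT and at 264, 245 and 321 across DCRT-KO, which overlapped, with a log2 difference of 0.29 ± 0.18 SE (limma adjusted p = 0.356), and -0.28 with quantile normalization.

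RPL41 and RPLP0 were the most abundant members per length: RPL41 had the higher mean over all 6 libraries, and RPLP0 the higher mean in WT. RPL41 encodes a tiny basic peptide from a coding sequence of 75 bases. RPL41 was at 686, 489 and 754 FPKM across WT and at 898, 1037 and 1128 across DCRT-KO, all above WT (log2 difference 0.68 ± 0.22 SE, limma adjusted p = 0.107). RPL39, a short protein of the exit tunnel, was at 355, 299.6 and 384 FPKM across WT and at 417, 442 and 600.0 across DCRT-KO. Its groups did not overlap, with a log2 difference of 0.48 ± 0.20 SE (limma adjusted p = 0.188). RPL13A, which also silences inflammatory mRNAs outside the ribosome, was at 235, 233 and 318 FPKM across WT and at 519, 665 and 325 across DCRT-KO. Only DCRT-KO library 3 came near WT, where library c lay just below it. The log2 difference of RPL13A was 0.89 ± 0.27 SE (limma adjusted p = 0.0888, voom 0.00848).

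The largest differences by size did not pass limma. RPL21 was at 18.2, 19.5 and 25.2 FPKM across WT and at 72.4, 52.4 and 27.4 across DCRT-KO, so its values spread widely among DCRT-KO libraries and library 3 was close to WT c. Its log2 difference was 1.14 ± 0.31 SE (limma adjusted p = 0.0734, voom 0.0231). RPL29, first described as a heparin-binding protein of the cell surface, was at 118, 113 and 177 FPKM across WT and at 292, 377 and 192 across DCRT-KO. RPL29 was also higher in every DCRT-KO library, with a log2 difference of 1.05 ± 0.27 SE (limma adjusted p = 0.0615, voom 0.00433). RPL36, RPL38, RPL13, RPL7A, RPL19, RPL28, RPL10A and RPL27A also had no overlap between the groups, with log2 differences from 0.45 to 0.92. RPL12, RPL31 and RPL37A had none either, but differed by only 0.18 to 0.24. In DCRT-KO library 3, RPL13 had 62.78 FPKM against 62.37 in WT c, so its lack of overlap rests on almost equal values.

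**Figure D3:**
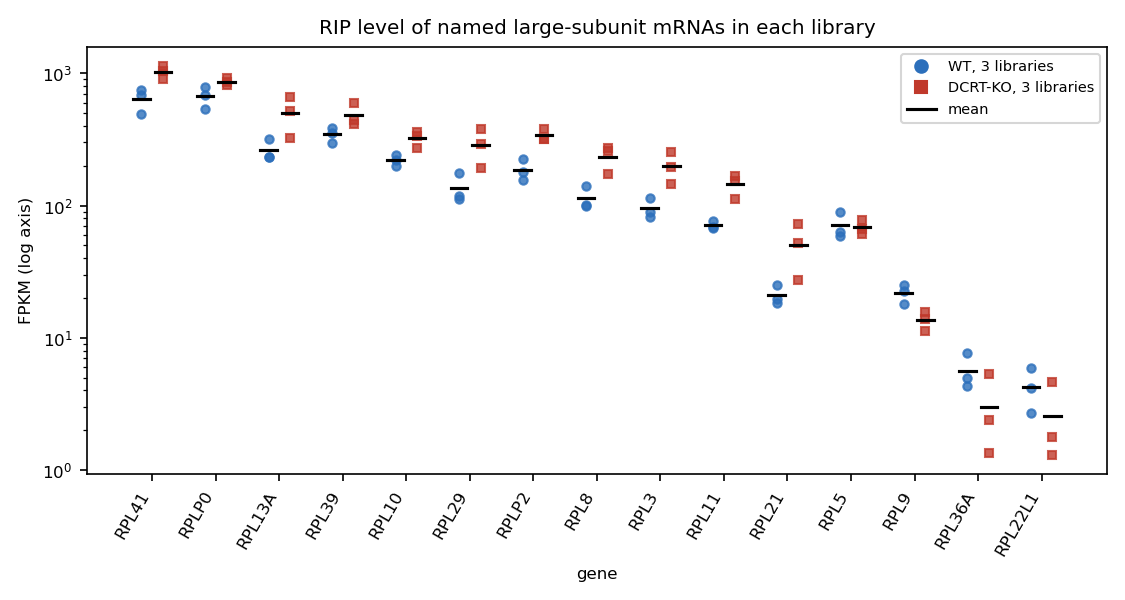
FPKM in each library (log axis) for 15 members, WT as circles and DCRT-KO as squares, with a bar at each mean of 3. RPL11 runs from 67.5 to 76.6 in WT and from 113 to 168 in DCRT-KO, while RPL5 overlaps and RPL9 is lower in every DCRT-KO library.

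RPL9, at the base of the stalk, went the other way. It was at 22.6, 24.9 and 18.1 FPKM across WT and at 11.3, 13.9 and 15.6 across DCRT-KO, all DCRT-KO values below all WT values. The log2 difference was -0.65 ± 0.20 SE (limma adjusted p = 0.0918, voom 0.0883), and it passed with mitochondrially encoded genes left out of the scaling (0.0496) and without DCRT-KO library 3 (0.0456). Over the 20 alternatives its adjusted p otherwise missed the threshold. RPL36A, at the site where tRNA leaves the ribosome, was at 4.97, 7.71 and 4.28 FPKM across WT and at 2.39, 1.35 and 5.30 across DCRT-KO, from 51, 55 and 35 reads and 5, 2 and 29 reads. Its groups overlapped, and the log2 difference of -0.82 ± 0.38 SE was the lowest of all tested members (limma adjusted p = 0.23).

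In the limma fit the difference went with the level of the member. All 19 members with a mean of at least 100 FPKM had a positive difference, with a median of 0.68 on the log2(FPKM + 1) scale. With quantile normalization 14 of these 19 were positive, with a median of 0.25. From 20 to under 100 FPKM, 19 of 20 members were positive, with a median of 0.37. Under 20 FPKM, 2 of 11 members were positive, RPL17 and RPL30, with a median of -0.14. This class depended on the fit: 6 of 11 were positive with voom (median 0.05), and 6 without DCRT-KO library 1 (median 0.08). Without both shallowest libraries it was 7 of 11 (median 0.19), against 18 of 19 in the highest class (median 0.46). Across the 50 members, level on the log2 scale and log2 difference had a Pearson correlation of 0.59 (Spearman 0.56), and across all tested genes the Pearson value was 0.16. GC content had 0.52 (Spearman 0.55) across members and 0.40 across 11424 tested genes. These are descriptions over genes that share libraries and depth. A fit that takes out the trends with GC content and transcript length together left RPL11 as the only call, against 0.779% of all genes. In that fit 44 members were positive, with a median of 0.35. Taking out the trend with the deposited gene length alone, another measure of length, left 2 members called, against 2.15% of all tested genes. The loss of calls therefore cannot be assigned to GC content. Transcript length went less with the difference (Pearson -0.14 across members). The transcripts of members were short, with a median of 754.5 bases against 2844.5 for all tested genes.

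**Figure D4:**
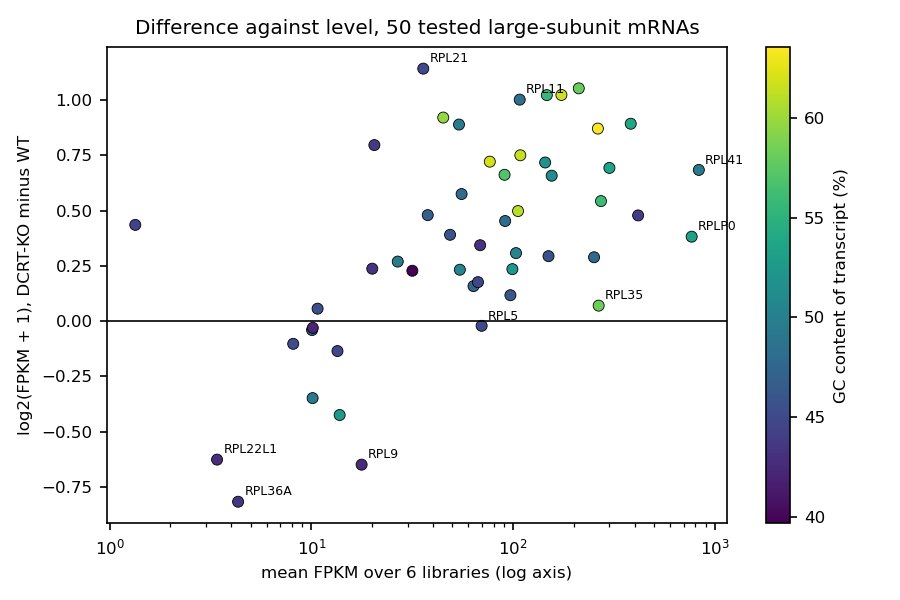
Log2 difference (DCRT-KO minus WT) against mean FPKM over 6 libraries (log axis) for the 50 tested members, coloured by GC content of the transcript. All 19 members at 100 FPKM or more lie above 0, and 2 of the 11 under 20 FPKM do.

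Levels of the members spanned a wide range although their proteins are built in at fixed proportions. With the paralogs below left aside, WT means ran from 670 (RPLP0) and 643 FPKM (RPL41) down to 9.67 (RPL23A), 5.65 (RPL36A) and 1.02 (RPL17). These genes have many processed pseudogenes and near-identical copies, the sources used here do not say how reads matching several places were counted, and their FPKM are uncertain for that reason. On the same strand, RPL17 overlaps RPL17-C18orf32 and RPL36A overlaps RPL36A-HNRNPH2, readthrough genes that were listed at 0 in all libraries. RPL26 and RPL22 each overlap a further gene listed at 0, and RPL36 overlaps HSD11B1L. RPL23A had WT read counts of 57, 35 and 48 and DCRT-KO read counts of 17, 1 and 50, so DCRT-KO library 2 stood far below the rest. The deposited gene lengths had a median of 3322.5 bases for the members and were shorter than the transcript used here in 1 member, RPL22L1. FPKM were computed with these lengths. The part of these points in the levels was not tested.

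Paralogs, some of which can stand in for a member in the ribosome, differed in level. RPL26L1 made up 42.4% of the WT and 43.2% of the DCRT-KO sum of its pair (by mean FPKM), RPL22L1 29.3% and 20.3%, RPL7L1 12.2% and 9.32%, and RPL39L 3.74% and 2.83%. RPL3L, the muscle form of RPL3, had WT read counts of 5, 5 and 3 and DCRT-KO read counts of 0, 0 and 5 and was not tested. Its WT mean was 0.745 FPKM, 0.775% of the sum of both genes. RPL10L, a testis form of RPL10, had no read among 8733134, which allows up to 3 reads in each library, or between 1.43 and 9.90 FPKM depending on depth, for counting error alone. RPL39L, a testis form of RPL39 also found in tumours, was at 16.5, 10.8 and 13.1 FPKM across WT and at 1.83, 25.9 and 14.7 across DCRT-KO, from only 1, 10 and 21 reads in the latter. The groups of RPL39L overlapped fully (log2 difference -0.43 ± 0.67 SE, limma adjusted p = 0.735).

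RPL22L1, which is known to increase when its partner RPL22 is lost, was at 4.14, 2.71 and 5.91 FPKM across WT and at 4.61, 1.31 and 1.77 across DCRT-KO, with 5, 1 and 5 reads in the latter. Its log2 difference of -0.63 ± 0.39 SE did not pass (limma adjusted p = 0.355). RPL22 was at 9.52, 11.4 and 9.77 FPKM across WT and at 8.11, 10.3 and 11.8 across DCRT-KO, with overlap (log2 difference -0.03 ± 0.21 SE, limma adjusted p = 0.942). RPL26, which also binds p53 mRNA, was at 17.4, 13.1 and 11.2 FPKM across WT and at 7.53, 18.1 and 13.5 across DCRT-KO, and RPL26L1 had 6.97, 12.4 and 11.2 and 6.50, 11.5 and 11.8. Both overlapped between the groups, with log2 differences of -0.14 ± 0.30 SE and -0.04 ± 0.29 SE (limma adjusted p = 0.814 and 0.945). RPL7 was at 54.8, 57.2 and 68.6 FPKM across WT and at 78.5, 89.3 and 63.3 across DCRT-KO (log2 difference 0.34 ± 0.18 SE, limma adjusted p = 0.278). Its relative RPL7L1 had 6.68, 9.82 and 8.51 and 7.76, 5.14 and 10.9 FPKM, with overlap. All 4 tested paralogs had negative differences with limma, each smaller than 2 SE, but RPL26L1 and RPL7L1 turned positive with voom (0.14 and 0.08), and RPL26L1 and RPL39L without DCRT-KO library 1 (0.21 and 0.53).

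The members are spread over 19 chromosomes, and 19 of the 52 contain an annotated small nucleolar RNA (snoRNA) in the same strand (GENCODE 29). Of the 19 with one, 17 had a positive difference (median 0.48), and of the 31 tested members without, 23 did (median 0.29). All 5 members on chromosome 19 were positive, with a median of 0.75, where the 698 other tested genes of that chromosome had a median of 0.19. On chromosome 3, 6 of 8 members were positive, with a median of 0.25 against -0.10 for 680 other genes. Within 5 Mb of RPL11 the 102 tested neighbours had a median log2 difference of -0.03, and within 5 Mb of RPL3 and RPLP2 those medians were 0.20 (103 genes) and 0.29 (52 genes). RPL9 lies among 27 tested neighbours with a median of -0.19.

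Other genes of the translation machinery were listed by function. Over all tested genes, limma called 2.35% higher and 1.2% lower, and voom 5.85% and 3.4%. At an unadjusted limma p below 0.05, 1403 of 11445 were higher and 1297 lower. Among 33 tested small-subunit proteins, 6 rose with limma and none fell (1 was lower at an unadjusted p below 0.05, and none by voom), with 29 positive differences and a median of 0.54, against 0.39 for the large subunit. RPS27A, made as a fusion with ubiquitin, was at 31.0, 29.5 and 45.1 FPKM across WT and at 96.1, 101 and 69.0 across DCRT-KO, all above WT (log2 difference 1.32 ± 0.22 SE, limma adjusted p = 0.0235). RPS21 rose from 80.2 ± 16.0 to 172 ± 31.4 FPKM (limma adjusted p = 0.0272). Of the 20 alternative fits, 6 lost the call of RPS27A and 9 that of RPS21. RPL36AL, a near copy of RPL36A whose name falls outside the pattern, was at 7.25, 18.6 and 18.2 FPKM across WT and at 66.0, 25.1 and 28.2 across DCRT-KO, with DCRT-KO library 1 far above the rest. It did not pass limma (log2 difference 1.35 ± 0.42 SE, adjusted p = 0.0964).

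Among 17 tested elongation factors and other TOP mRNAs, EEF1A1 and EEF1B2 rose with limma and none fell (3 were lower at an unadjusted p below 0.05, and 1 by voom), 10 were positive, and the median was 0.03. EEF1A1, which brings aminoacyl-tRNA to the ribosome, was at 195, 194 and 248 FPKM across WT and at 426, 577 and 385 across DCRT-KO, well apart (log2 difference 1.11 ± 0.20 SE, limma adjusted p = 0.0271). EEF1B2, its exchange factor, was at 29.2, 29.9 and 37.5 FPKM across WT and at 78.1, 104 and 51.4 across DCRT-KO (log2 difference 1.197 ± 0.25 SE, limma adjusted p = 0.0363). Of the 20 alternative fits, 7 lost the call of EEF1A1 and 9 that of EEF1B2. Of 37 assembly and export factors of the large subunit, 1 rose and 1 fell, with a median of 0.17. RSL24D1, which holds the place of RPL24 in the precursor particle, fell from 14.3 ± 2.36 to 5.11 ± 1.49 FPKM. Its log2 difference was -1.34 ± 0.24 SE (limma adjusted p = 0.0269, lost in 8 of 20 alternatives), with 8, 4 and 27 reads in DCRT-KO. RPL24 itself was at 37.9, 40.3 and 53.9 FPKM across WT and at 63.6, 87.0 and 50.3 across DCRT-KO, with overlap. NOC2L, a nucleolar factor, rose from 8.49 ± 1.21 to 22.0 ± 8.20 FPKM (limma adjusted p = 0.0379, lost in 9 of 20 alternatives).

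None of 21 small-subunit assembly factors and none of 16 genes of RNA polymerase I and its factors passed limma, with medians of -0.18 and 0.15. The limma shares of all tested genes were 2.35% higher and 1.2% lower. In the order of the lists, voom called none and 1 gene, against 5.85% higher and 3.4% lower of all tested genes. At an unadjusted limma p below 0.05, 0 were higher and 2 lower among the assembly factors, and 3 higher and 1 lower among the polymerase genes. Of all 11445 tested genes, 1403 were higher and 1297 lower at that p. NOL6, a factor of early assembly, averaged 34.0 ± 0.724 FPKM across WT against 29.7 ± 1.12 across DCRT-KO, and POLR1B, a core polymerase subunit, 34.3 ± 2.43 against 31.7 ± 5.89. Among 16 genes of TOP translation and mTORC1 signalling, RPS6KB1, the S6 kinase, fell from 5.94 ± 0.504 to 2.19 ± 0.707 FPKM (limma adjusted p = 0.0491, lost in 13 of 19 alternatives, which ran from 0.0218 to 0.2), none rose (3 were higher at an unadjusted p below 0.05, and none by voom), and the median was 0.04. All these counts rest on the same 6 libraries as the members, and calls in them were not tested against each other.

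**Figure D5:**
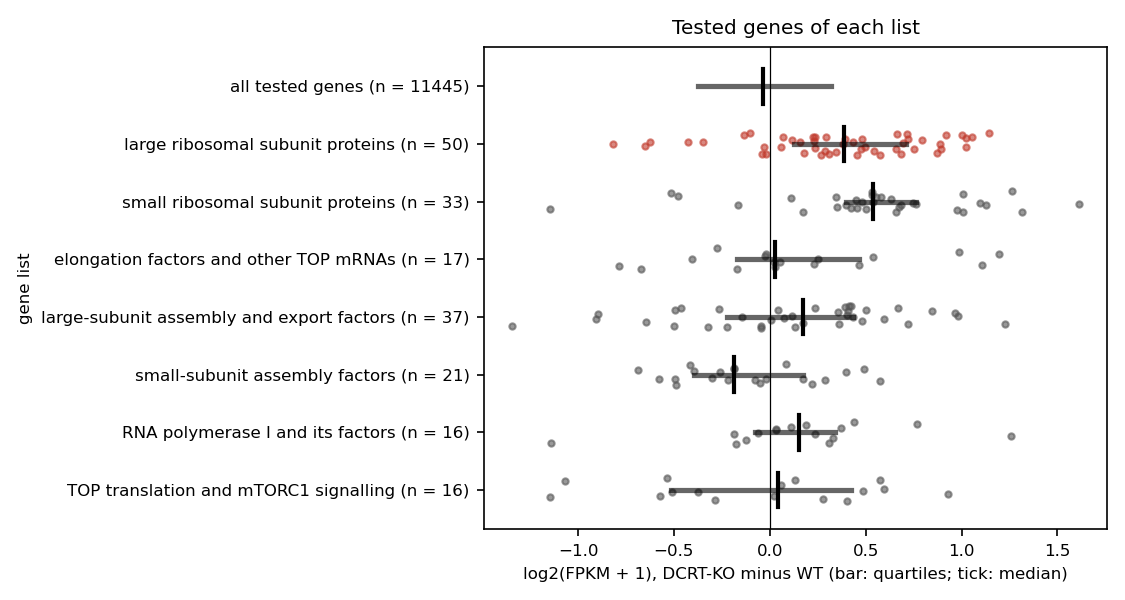
Log2 difference (DCRT-KO minus WT) of the tested genes in each list, with quartiles as a bar and the median as a tick; all tested genes are shown by quartiles only. The medians of the large-subunit and small-subunit lists are 0.39 and 0.54, and that of all 11445 genes is -0.04.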

How the data were processed

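The 6 AC16 libraries were PTBP1 RIP-seq, 3 from DCRT-KO cells and 3 from WT. Per the labels' protocols, libraries were strand-specific and sequenced as paired ends; cutadapt 1.2.1 is named per the submitters' processing notes. For the aligner, counter and build the answer is not given in the sources used here. FPKM per gene, with gene lengths, is what the authors deposited. Reads were worked back from FPKM and length, which fell on whole multiples of a fixed step in 100% of cases (tolerance 1e-06). DCRT-KO columns were matched by name and WT columns, which repeat a number, to the group only; unused per-sample columns were 0. Separate cultures are not stated, so p-values reflect only how these libraries vary, possibly for technical reasons. Chi-square per degree of freedom between replicates was 2.82 to 5.88, so none was merged.

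The test was limma 3.58.1 in R 4.3.3, two-sided with trended variance, on log2(FPKM + 1) of the 11445 genes averaging 1 FPKM or more, adjusted by Benjamini-Hochberg, with a threshold of 0.05; this scale understates changes of low genes. Named members were those past the threshold, the 5 highest, the 3 largest differences each way, the stalk, the 5S pair and paralogs with partners; from each other list, up to 3 past the threshold or the highest. RPL24 and the further members named in groups were added after values were seen. Members and lists were chosen with earlier results of these data known. The test was checked on simulated data. GC content and TCTT counts used 1 GENCODE 29 transcript a gene. Tables were handled in Python 3.11.15 (NumPy 2.4.6, pandas 2.3.3). Alternatives numbered 20, of which 3 were added after the data were seen. Some genes that these rules select are not reported here; counts over lists include them.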

Additional observations from a re-analysis of the deposited data

How the results depend on the processing

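The number of members higher was 4, against 2.35% of all tested genes. It became 2 with a pseudocount of 0.1 (1.65% of all genes), median-of-ratios scaling (2.3%) or removal of the length trend (2.15%). It became 1 with quantile normalization (1.91%), rescaling without mitochondrially encoded genes (1.63%) or removal of the trend with GC content and transcript length (0.779%). It was 0 with no filter, without a variance trend and without both shallowest libraries, where 1 lone DCRT-KO library is assumed to vary like WT. With no filter and without a variance trend, limma called 0.464% and 0.612% of all tested genes higher. At an unadjusted limma p below 0.05, these fits had 23 and 19 members higher. All genes were counted at that p only in the main fit (1403 of 11445 higher), so no matching share stands beside them. The number of members higher was 17 with voom and 23 with voom and quality weights, against 5.85% and 7.16% of all genes. One member (RPL9) was lower with rescaling without mitochondrially encoded genes, which moved the median of all genes to -0.17. The median difference of members was 0.16 with quantile normalization. Leaving out 1 library gave 0 to 19 members higher, 0 to 2 lower, 39 to 44 positive, a median of 0.31 to 0.47 and a share higher by 0.777 to 1.03 percentage points.

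Over all genes, 269 rose and 137 fell. The counts were 72 and 50 with no filter, 70 and 64 without a variance trend, 669 and 389 with voom, 820 and 483 with voom and quality weights, 89 and 52 after removal of the GC and length trend, and 27 and 11 without both shallowest libraries. Genes lower numbered 90 with a pseudocount of 0.1, 231 with quantile normalization (219 higher) and 328 with rescaling without mitochondrially encoded genes (186 higher). With median-of-ratios scaling 263 rose and 179 fell. Leaving out 1 library gave 0 to 707 higher and 0 to 821 lower. The causes were not tested. Of the 697 values of 35 tested named genes under alternatives, 117 lost and 24 gained a call, and 32 changed sign, none of them past the threshold. Log2 differences that changed sign with quantile normalization were RPL10 -0.0516, RPLP0 -0.0916 and RPLP1 -0.2841. With voom they were RPL22 0.0526, RPL26L1 0.1431 and RPL7L1 0.0788, and with quality weights RPL5 0.0344, RPL22 0.0088 and RPL26L1 0.1748. After removal of the GC and length trend they were RPL5 0.1495, RPL22 0.2284, RPL26L1 0.0495, RPL7L1 0.0049 and RPL26 0.0161. Without both shallowest libraries they were RPL22 0.191, RPL26L1 0.2291, RPL7L1 0.3585, RPL39L 0.1404 and POLR1B 0.0908. Leaving out 1 library gave RPL5 -0.134 to 0.1614, RPL22 -0.1416 to 0.1034, RPL26L1 -0.2692 to 0.211, RPL7L1 -0.3337 to 0.1401, RPL26 -0.3954 to 0.1866, RPL39L -1.096 to 0.5286 and POLR1B -0.2319 to 0.0291. No paired analysis was possible because the WT columns repeat a replicate number. Depth limits members under 20 FPKM, which rest on few reads in DCRT-KO.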
